A study of Rattus norvegicus with 12 samples.

Results

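The splicing factor and heterogeneous nuclear ribonucleoprotein (hnRNP) families of the rat were followed through 4 populations of neurons. The members were genes whose symbol, updated by Entrez ID, begins with *Hnrnp*, *Srsf*, *Snrp*, *Sf3a*, *Sf3b*, *U2af*, *Prpf*, *Dhx* or *Rbm*. These prefixes found 115 probe sets, each a group of short probes to 1 transcript, for 85 genes, out of 10412 genes with 1 symbol. Each gene was taken by its probe set of highest mean signal. The neurons came from untreated Fisher 344/BN F1 hybrid rats aged 6 months. They were lifted by laser capture microdissection from stained brain sections. The regions were CA1 and CA3 of the hippocampus, the granule cells of the cerebellum (CbG) and the deeper layers, IV to VI, of frontal cortex (CTX). Each region has 3 arrays labelled as biological replicates, 12 in all. The study set CA1 and CbG, which it classes as vulnerable to oxidative stress (VUL), against CA3 and CTX, which it classes as resistant (RES). A captured layer also holds other cells, and whether an array differs by fewer expressing cells or by less RNA per cell cannot be told apart. The methods describe collection of all 4 populations from each animal but the labels name no animal, so p-values measure the spread between these arrays.

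Introns are removed from pre-mRNA by the spliceosome, which is built from small nuclear ribonucleoproteins (snRNPs) that recognise the splice sites and from proteins that remodel them. SR proteins, encoded by the *Srsf* genes, mostly promote the use of nearby exons, whereas many hnRNPs coat nascent transcripts and often oppose them. Neurons use an unusually wide range of alternative exons. The name prefixes do not bound a single function: several *Dhx* helicases and *Rbm* proteins act in translation, RNA decay or mitochondria.

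Of the 85 members, 72 had a signal above the array median in at least 8 of 12 arrays and were tested among 7535 probe sets. These were 14 of 16 *Hnrnp*, 5 of 7 *Srsf*, 6 of 8 *Snrp*, 8 of 8 *Sf3*, 2 of 2 *U2af*, 10 of 10 *Prpf*, 8 of 9 *Dhx* and 19 of 25 *Rbm* genes. The 13 others were *Hnrnpf*, *Hnrnpul1*, *Srsf9*, *Srsf10*, *Snrpa*, *Snrpn*, *Dhx34*, *Rbm7*, *Rbm15b*, *Rbm38*, *Rbm47*, *Rbms1* and *Rbms2*, with mean signals between 64.4 (*Rbms1*) and 185 (*Snrpa*). The arrays give a signal for them but it was mostly in the lower part of each array, and no comparison was made. *Snrpn*, for a neuronal Sm protein from an imprinted locus, was at 155 on average in its own probe set.

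The labels of 1 CA3 and 1 CbG array, CA3 replicate 3 (CA3-3 from here on) and CbG replicate 3 (CbG-3), go against their marker genes. The summed signal of 8 granule cell markers, among them *Gabra6*, *Neurod1* and *Pax6*, was 41849 in CbG replicate 1, 51194 in CbG replicate 2 and 46388 in CA3-3. It was 2525 in CbG-3 and between 2037 and 2990 in the other 8. The summed signal of 4 markers of forebrain pyramidal neurons was 992 in CA3-3 and 21310 in CbG-3, beside 661 and 653 in CbG replicates 1 and 2. Of these markers, *Nrgn* was at 49.2 in CA3-3 and at 6451 in CbG-3, but *Neurod2* went the other way, at 669 and 503. Each result is therefore given for the arrays as labelled and again with these 2 labels exchanged, and where it matters for the 10 other arrays alone. Purkinje cell markers (6 genes) summed to 20203 and 44581 in CbG replicates 1 and 2 and to 5016 in CA3-3. *Car8* was at 3850, 9877 and 115 in these arrays, so the 3 granule arrays differ in other captured cells. Not every marker was highest there: *Gad1* was at 4413 and 7325 in CbG replicates 1 and 2 and at 5608 to 9345 in CTX. *Itpr1* was at 4992 in CbG replicate 1, below CA1 (6986 to 7116). CA1 markers (3 genes) summed to 4499 in CbG-3, beside 1267 and 520 in CA3 replicates 1 and 2 and 19550 to 25303 in CA1. The exchanged CA3 arrays thus differ in these markers too. Oligodendrocyte markers (5 genes) summed to between 22140 and 35487 in CTX and to between 3850 and 16969 elsewhere. The part of these cells in the results was not tested. The log2 ratio of 3′ to 5′ signal of β-actin, a sign of RNA length, was between 3.85 and 6.52 over the arrays, highest in CbG replicate 2.

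The level of the families was first read within each array, as the median log2 signal of the 72 members minus that of all 7535 probe sets tested, which no factor applied to a whole array can change. This difference was 0.66 in CbG replicate 1 and 0.69 in CbG replicate 2, and 0.66 in CA3-3. It was 0.52, 0.38 and 0.30 in the CA1 arrays, 0.41 and 0.25 in CA3 replicates 1 and 2, and 0.30 in CbG-3. In CTX it was 0.15, 0.24 and 0.05. The 3 arrays with granule markers stood above the other 9, the CTX arrays were below all others, and CA1 and CA3 lay between and overlapped. With CA3-3 counted as a granule array, the granule layer thus had the highest level, but CA1 and CA3 were also above every CTX array. As labelled, CbG (0.30 to 0.69) and CA3 (0.25 to 0.66) overlapped. The 70 other splicing genes, from a list of 97 that shares no gene with the families, were at 0.71 to 0.80 in the arrays with granule markers and at 0.36 to 0.59 in the other 9.

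**Figure D1:**
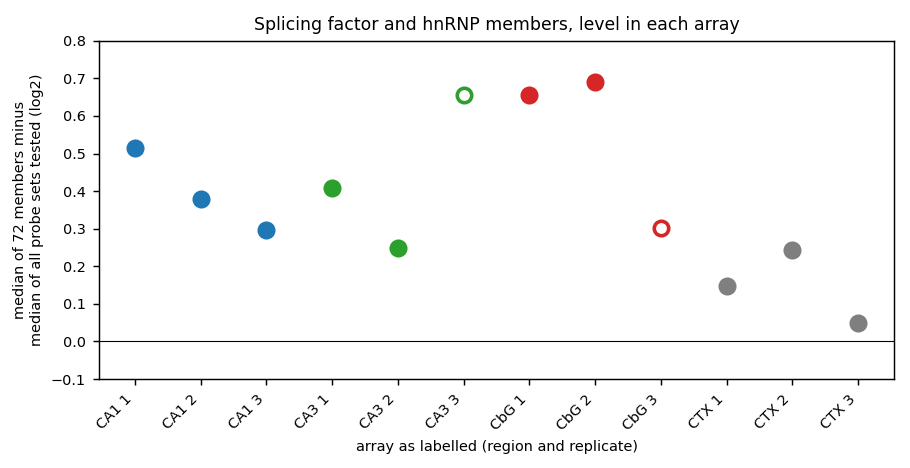
Median log2 signal of the 72 tested members minus the median of all 7535 probe sets tested, for each of the 12 arrays as labelled (CA1 blue, CA3 green, CbG red, CTX grey; open circles are CA3-3 and CbG-3). The 2 filled CbG points and the open CA3 point lie at 0.66 to 0.69, above the other 9 arrays, and the 3 CTX points are lowest, at 0.05 to 0.24.

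The families did not share 1 pattern across the regions. For *Prpf*, *Dhx* and *Sf3* genes the 3 arrays with granule markers did not overlap the other 9. The *Dhx* median minus that of all probe sets was 0.66, 0.50 and 0.59 in CbG replicates 1 and 2 and CA3-3, against -0.12 to 0.24 in the other 9 arrays. For *Prpf* the same arrays were at 0.28, 0.51 and 0.21, against -0.48 to 0.12 elsewhere, and for *Sf3* at 0.59, 0.39 and 0.61, against -0.36 to 0.28. *Snrp* genes instead set CTX apart: the CTX arrays were at -0.11, -0.08 and -0.11, and 8 of the 9 other arrays were above them, with CbG replicate 2 at -0.12. *Hnrnp* (1.11 to 1.60) and *Srsf* (1.30 to 1.96) were the families furthest above all probe sets in each array, and their regions overlapped. The *Rbm* medians overlapped too, between -0.19 and 0.29.

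**Figure D2:**
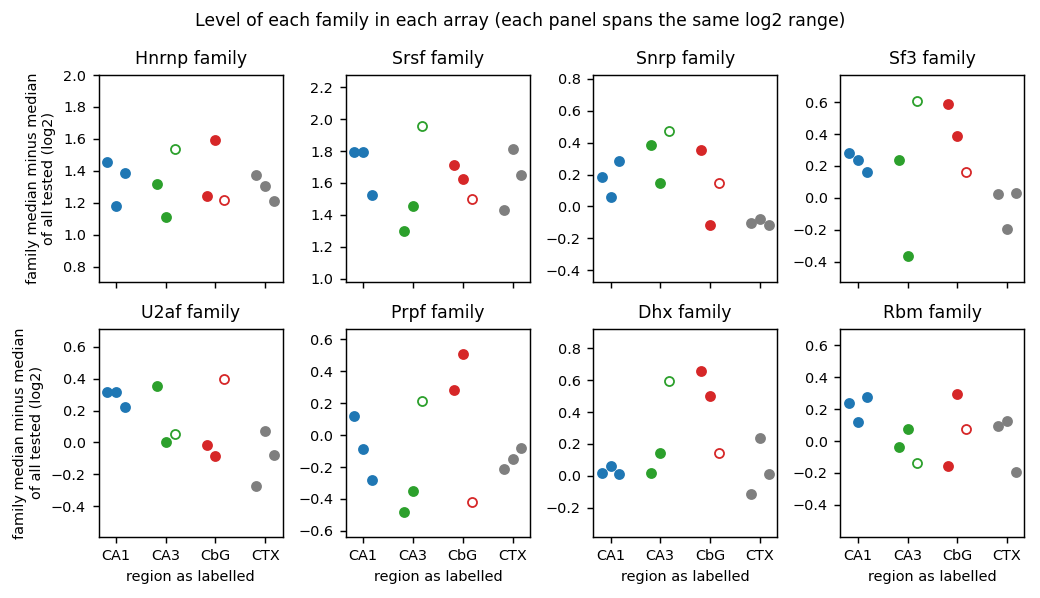
Median log2 signal of each family minus the median of all probe sets tested, for the 3 arrays of each region as labelled, with CA3-3 and CbG-3 as open circles and every panel spanning the same log2 range. The open CA3 circle sits with the filled CbG points in the Sf3, Prpf and Dhx panels, and CTX is low in the Snrp panel.

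Whether the granule layer differed from each other region was tested with limma on log2 signals centred on the array median, with the replicate number as a block. A member was called where the Benjamini-Hochberg adjusted p over all probe sets was under 0.05 and the difference at least 1.5-fold. With the arrays as labelled, 0 of 72 members were called higher or lower in CbG than in CA1 (background 0.464% of all probe sets higher, 0.783% lower), CA3 (0% and 0%) or CTX (0.332% and 0.292%). The smallest adjusted p of a member was 0.136, 0.8 and 0.169 in limma in these comparisons. At an unadjusted p under 0.05, limma gave 0 members higher and 8 lower than in CA1, 0 and 0 compared with CA3, and 14 higher and 0 lower compared with CTX. The corresponding shares of all probe sets were 5.65% and 14.3%, 0.451% and 3.94%, and 10.9% and 4.71%. No member was higher in CbG than in each of the other 3 regions (0% of all probe sets). As labelled, the data thus showed no call in the granule layer for any family.

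With the 2 labels exchanged, 28 of 72 members (38.9%) were higher in CbG than in CA3 against 18% of all probe sets, and 5 were lower (6.94% against 27.5%). Compared with CTX, 35 were higher (48.6% against 20.9%) and 1 was lower (1.39% against 13%). Compared with CA1, however, 10 were higher (13.9% against 15.6%) and 9 lower (12.5% against 25.1%), so that the share higher than in CA1 was near that of all genes. The median difference of the members was 0.13, 0.38 and 0.54 (log2) compared with CA1, CA3 and CTX, beside -0.13, -0.14 and 0.18 for all probe sets. Centring on the array median set the split against CA1. On the signals as deposited it was 15 higher (20.8% against 19.6% of all probe sets) and 3 lower (4.17% against 20.7%), and after quantile normalization 15 (against 19.2%) and 4 (against 20.6%). The share higher than in CA1 was thus near that of all probe sets under each scaling. The other splicing genes gave 9, 21 and 28 higher and 8, 7 and 3 lower of 70.

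**Figure D3:**
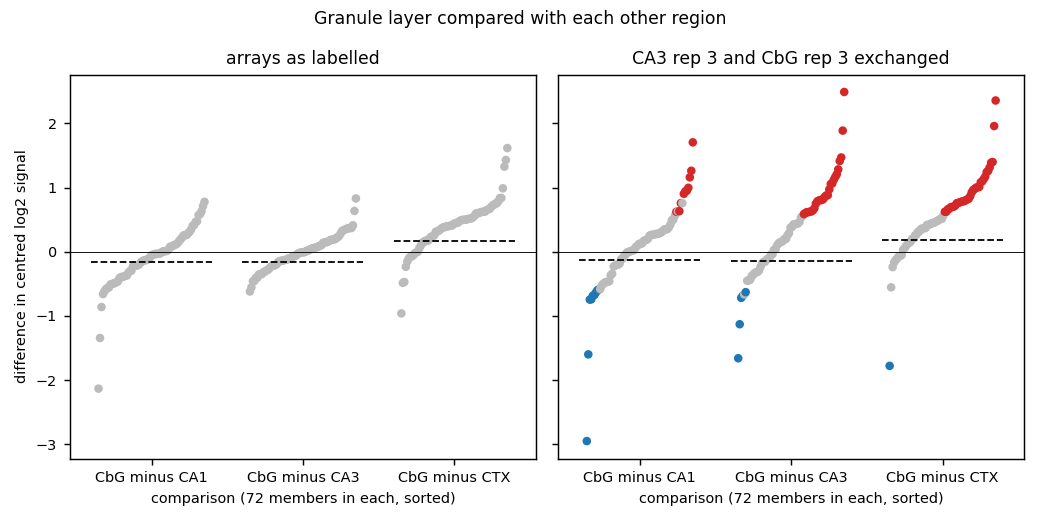
Difference in centred log2 signal between CbG and CA1, CA3 or CTX for each of the 72 tested members, sorted within each comparison, with the arrays as labelled (left) and with the 2 labels exchanged (right). Red and blue points were called higher and lower in limma, grey points were not called, and dashed lines are the median of all probe sets tested; as labelled 0 points are called, and exchanged 10, 28 and 35 are called higher.

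Higher levels in the granule layer alone were found for a minority of members. With the labels exchanged, 10 of 72 (13.9%) were called higher in CbG than in each of the other 3 regions, against 8.31% of all probe sets. They were *Srsf1*, *Rbm3*, *Rbm4b*, *Rbm8a*, *Rbm12b*, *Prpf3*, *Prpf38b*, *Prpf39*, *Sf3b1* and *Dhx16*, and none was an *Hnrnp* or *Snrp* gene. Another probe set of *Sf3b1* overlapped the other regions, and *Rbm4b* was below the array median in all CA3 arrays once exchanged (values below). The same rule found 2 members for CA1 (*Rbm24* and *Rbmx*; 2.61% of all probe sets), 0 for CA3 (2.48%) and 0 for CTX (1.55%). By rank, with no test, all 3 CbG arrays lay above all other arrays for 15 members (11% of all probe sets), and as labelled for 0 (0.0796%). On uncentred signals, an alternative chosen after seeing the data, that was 25 members with the labels exchanged, beside 13.1% of all probe sets.

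Differences of CA1, the other vulnerable population, from CTX rested on the scaling. With the labels exchanged, 27 members were higher and 0 lower in CA1 than in CTX, against 26.8% and 7.3% of all probe sets. These were 37.5% of the members. As labelled, 4 were higher, *Rbm42*, *Snrpd3*, *Dhx30* and *Hnrnpab*, and 0 lower, against 4.49% and 2.12%. The estimates of this contrast are the same under both arrangements, and only the error changes. The median of all probe sets was 0.33 higher in CA1 after centring, and without centring 8 members were higher (11.1% against 10.2%) and 1 lower (1.39% against 12.8%). Quantile normalization gave 9 (12.5% against 11.9%) and 1 (against 11.8%). Compared with CA3, CA1 had 9 members higher (12.5% against 7.51%) and 0 lower (against 6%) with the labels exchanged, and 8 higher (against 6.77%) and 1 lower (against 6.14%) after quantile normalization. CA3 had 13 members higher (18.1% against 27.9%) and 2 lower (2.78% against 8.39%) than CTX, and without centring 3 higher (4.17% against 11%) and 6 lower (8.33% against 15%). In centred signals, all CTX arrays lay below all 9 others for 16 of 72 members (22.2%, against 9.45% of all probe sets) under either arrangement. This was 0 of 72 in the signals as deposited, against 2.97%.

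Small nuclear ribonucleoproteins came first in the pathway and differed mainly from CTX. *Snrpb2*, for the U2 snRNP protein B″, had signals of 322, 203 and 243 in CA1, 270, 290 and 236 in the arrays labelled CA3, 252, 350 and 286 in those labelled CbG and 217, 152 and 70.3 in CTX. CTX replicate 1 reached into the range of CA1, and CTX replicate 3 was lowest of all arrays. CTX replicates 2 and 3 lay below their array medians of 187.0 and 199.3, so differences of this gene from CTX are ones from low signal. Exchanged, the CbG minus CTX difference was 1.24 ± 0.32 (log2, SE, adjusted p = 0.0079 in limma), and CbG did not pass the test against CA1 (-0.01 ± 0.32). *Snrpb*, for the Sm proteins B and B′ of the ring common to most snRNPs, was at 412, 574 and 454 in CTX and between 566 and 1047 in the other arrays, overlapping at CA1 replicate 2 (566). Its CbG minus CTX difference was 1.01 ± 0.23 (adjusted p = 0.00414). *Snrpe*, another ring protein, was 0.67 ± 0.20 higher in CbG than in CTX (adjusted p = 0.0181), a call lost under both other scalings. *Snrpd2* did not pass in any of the 3 CbG comparisons, with differences between -0.50 and -0.07. In all, 4 of 6 *Snrp* members (66.7%) were higher in CbG and 4 in CA1 than in CTX, against 20.9% and 26.8% of all probe sets. In CbG 0 were higher than in CA1 or CA3, against 15.6% and 18%, which for 6 genes is near the background. Both counts against CTX were 2 without centring and 2 after quantile normalization, and *Snrpb* lost its CA1 minus CTX call under both.

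Proteins of the U2 snRNP and its helpers, which select the branch point and the 3′ splice site, were split. *Sf3b1*, the large U2 subunit that clamps the branch point, had signals of 4524 and 3971 in CbG replicates 1 and 2 and 4827 in CA3-3. It was between 2088 and 2676 in 8 other arrays and at 3622 in CTX replicate 3. In this probe set the 3 arrays with granule markers were highest without overlap. After the exchange *Sf3b1* was 0.76 ± 0.18, 0.86 ± 0.18 and 0.78 ± 0.18 higher in CbG than in CA1, CA3 and CTX. The difference from CTX was not called after quantile normalization (0.50). Another *Sf3b1* probe set past the filter did overlap. It was at 1981 and 1559 in CbG replicates 1 and 2 and 1632 in CA3-3, beside 1888 in CTX replicate 3. Its CbG difference from the mean of the other 3 regions was 0.45 with the labels exchanged, against 0.80 in the first probe set. As labelled it was -0.001, against 0.25. *Sf3b3* (0.79 ± 0.19) and *Sf3b6* (0.79 ± 0.29), partners in the same complex, were higher in CbG than in CTX alone among the 3 comparisons, and *Sf3b6* lost the call under both other scalings. *Sf3b5* was lower in CbG than in CA1 (-0.64 ± 0.21, adjusted p = 0.0233 in limma), a call also lost under both. *U2af2*, the large subunit that binds the polypyrimidine tract, did not pass in any CbG comparison, with -0.20, -0.45 and 0.09 compared with CA1, CA3 and CTX. *U2af1l4*, related to the small U2AF subunit, was lower in CbG than in CA1 (-0.74 ± 0.23, adjusted p = 0.0194) and not called so without centring.

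The *Prpf* genes, for proteins that assemble or rearrange the tri-snRNP and other snRNPs, held 3 of the 10 members higher in CbG than in each other region. *Prpf3*, for a U4/U6 snRNP protein, was at 1249 and 1558 in CbG replicates 1 and 2 and at 1274 in CA3-3. The other 9 arrays lay between 413 and 654, so the groups did not overlap once the labels were exchanged. It was then 1.26 ± 0.18, 1.47 ± 0.18 and 1.39 ± 0.18 higher than in CA1, CA3 and CTX (adjusted p of 8.13e-05, 2.14e-05 and 6.94e-05 in limma). *Prpf38b*, similar to a factor needed for spliceosome activation, was at 774, 717 and 659 in these 3 arrays and between 247 and 403 elsewhere. *Prpf39*, a U1 snRNP protein, was at 738, 1031 and 803 against 227 to 583. Both were higher than in each other region, by 0.90 to 1.41. *Prpf40b* went the other way, with -0.72 ± 0.24 compared with CA3 (adjusted p = 0.0222) and no call compared with CA1 or CTX, and was not called without centring. Of 10 *Prpf* members, 3, 5 and 6 were higher in CbG than in CA1, CA3 and CTX (30%, 50% and 60%, against 15.6%, 18% and 20.9% of all probe sets). In the same fit 2 were lower than in CA3 (20% against 27.5%).

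Among the helicases, *Dhx16*, for a DEAH box protein that activates the assembled spliceosome, was the member furthest above the other regions in CbG. Its signals were 2020 and 1594 in CbG replicates 1 and 2, 2400 in CA3-3 and 356 in CbG-3. They were 505, 622 and 536 in CA1, 332 and 274 in CA3 replicates 1 and 2, and 416, 475 and 429 in CTX. The arrays with granule markers did not overlap the others, and CA1 was above CA3 and CTX. Once exchanged, CbG was 5.61-fold higher than CA3 (2.49 ± 0.20, adjusted p = 3.61e-07), 5.12-fold higher than CTX and 3.26-fold higher than CA1 (1.70 ± 0.20, adjusted p = 1.05e-05, limma). As labelled, CbG minus the mean of the other 3 regions was 0.95 ± 0.68 (adjusted p = 0.622). The study listed *Dhx16* from these arrays as higher in VUL, as it did *Hnrnpa1*, *Hnrnpa3*, *Hnrnph1*, *Hnrnpu*, *Rbm39* and *Sf3b1*, so these genes are not independent evidence. *Dhx15*, a helicase of spliceosome disassembly, was 0.62 ± 0.19 and 1.00 ± 0.19 higher in CbG than in CA3 and CTX. *Dhx38*, which acts between the catalytic steps, was higher than CTX in CbG (0.76 ± 0.19) and in CA1 (0.80 ± 0.19), and neither was called without centring. *Dhx57* did not pass in any CbG comparison (-0.37 to -0.04).

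Promoters were read because members of several families moved together in the granule layer arrays. RefSeq (GRCr8) gave 81 of the 85 genes a promoter of 300 bases, from 250 before to 50 after the start. Matches on either strand to the CCAAT box were found in 45 of the 81 (55.6%), against 38.4% of 18999 promoters of protein-coding genes. The letters CCGGAAG, bound by ETS factors, were in 28.4% against 11.2%. The GC box, searched as GGGCGG, was in 53.1% against 43.1%. The TATA box was searched as TATAAA and was in 7.4% against 13.1%. TGACGTCA (cAMP response element) was in 2.5% against 2.2% and GCATGCGC (NRF1) in 4.9% against 3.2%. The median GC content was 59.7% against 55.3%, and its part in these shares was not tested. Of the members higher in VUL with the labels exchanged, 17 of 21 with a promoter held CCAAT (81%) and 4 held CCGGAAG (19%). The GC box was in 47.6% of them, TATAAA in 14.3%, and TGACGTCA and GCATGCGC in 0%. This group was chosen by its signals, CCAAT is the largest share of several motifs searched, and no test was made. These are matches of letters, not sites. The promoters of 3 genes high in the granule layer and of *Rbm24*, which was low there, are shown to compare their sequences. Capitals mark matches to any of these motifs, 5′ to 3′ on the gene's strand. *Dhx16* (chr20:2879702-2880001, minus strand) and *Srsf1* (chr10:73336248-73336547, plus strand) held 3 and 2 matches. *Prpf3* (chr2:186092378-186092677, minus strand) and *Rbm24* (chr17:18493579-18493878, minus strand) held 0.
Dhx16: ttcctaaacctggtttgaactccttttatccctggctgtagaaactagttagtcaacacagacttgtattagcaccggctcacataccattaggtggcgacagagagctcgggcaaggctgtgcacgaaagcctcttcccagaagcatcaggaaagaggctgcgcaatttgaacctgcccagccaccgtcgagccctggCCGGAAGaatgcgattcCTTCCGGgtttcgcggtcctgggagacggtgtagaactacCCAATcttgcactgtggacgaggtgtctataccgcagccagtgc
Srsf1: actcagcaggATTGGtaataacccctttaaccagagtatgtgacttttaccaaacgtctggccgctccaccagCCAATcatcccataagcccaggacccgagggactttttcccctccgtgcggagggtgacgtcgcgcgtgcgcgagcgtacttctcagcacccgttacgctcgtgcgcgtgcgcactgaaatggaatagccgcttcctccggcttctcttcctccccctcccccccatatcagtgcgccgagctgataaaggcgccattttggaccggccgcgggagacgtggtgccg
Prpf3: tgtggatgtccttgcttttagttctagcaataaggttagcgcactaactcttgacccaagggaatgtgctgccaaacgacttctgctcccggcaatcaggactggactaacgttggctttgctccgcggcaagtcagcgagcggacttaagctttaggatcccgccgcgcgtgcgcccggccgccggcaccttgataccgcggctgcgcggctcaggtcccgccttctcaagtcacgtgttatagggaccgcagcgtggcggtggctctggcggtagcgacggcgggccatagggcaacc
Rbm24: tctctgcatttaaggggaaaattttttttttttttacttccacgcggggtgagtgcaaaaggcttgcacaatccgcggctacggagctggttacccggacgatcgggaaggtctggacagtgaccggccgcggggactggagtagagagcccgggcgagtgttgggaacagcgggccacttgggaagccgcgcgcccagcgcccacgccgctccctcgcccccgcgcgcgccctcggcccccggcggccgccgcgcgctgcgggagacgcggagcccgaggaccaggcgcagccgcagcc
The *Dhx16* promoter held CCGGAAG once on each strand and 1 CCAAT, and the *Srsf1* promoter held CCAAT once on each strand. *Prpf3* and *Rbm24* moved in opposite directions in the granule layer and neither held any of these motifs.

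**Figure D4:**
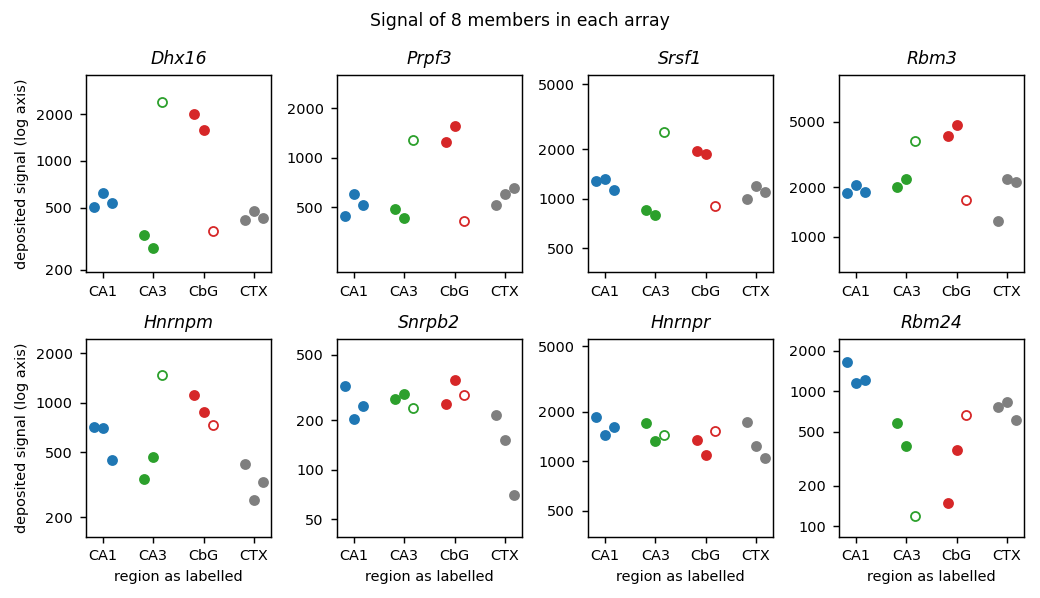
Deposited signal on a log axis for 8 members in the 3 arrays of each region as labelled, with CA3-3 and CbG-3 as open circles. For Dhx16, Prpf3, Srsf1 and Rbm3 the filled CbG points and the open CA3 point are highest, for Rbm24 the open CA3 point is lowest and CA1 is highest, for Snrpb2 CTX replicate 3 is lowest, and Hnrnpr overlaps between regions.

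With the labels exchanged, more SR protein genes were higher in CbG than in CA3 than were higher than in CA1. For CTX this held in centred signals only. *Srsf1*, the founding SR protein, was at 1959 and 1883 in CbG replicates 1 and 2 and at 2554 in CA3-3. CA1 was at 1290, 1321 and 1140, CTX at 1002, 1198 and 1098, CA3 replicates 1 and 2 at 855 and 800, and CbG-3 at 908. The exchanged arrays gave differences of 0.62 ± 0.19, 1.16 ± 0.19 and 1.13 ± 0.19 for CbG over CA1, CA3 and CTX (adjusted p = 0.0165, 0.000214 and 0.000502 in limma). Another probe set of the gene gave a larger CbG difference from the mean of the other regions (1.74 against 0.97). *Srsf2*, which also acts in transcription, was 0.81 ± 0.17 and 0.70 ± 0.17 higher than in CA3 and CTX, and *Srsf11* 0.68 ± 0.18 and 0.70 ± 0.18. Both lost the call against CTX under each other scaling. *Srsf5* was between 1603 and 2815 in all arrays and did not pass in any CbG comparison. Of 5 *Srsf* members, 1, 4 and 3 were higher in CbG than in CA1, CA3 and CTX (20%, 80% and 60%, against 15.6%, 18% and 20.9% of all probe sets). Under both other scalings they were 2, 4 and 1, against 19.2%, 20.7% and 15% of all probe sets after quantile normalization.

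Of 14 *Hnrnp* members, 7 (50%) were called higher in CbG than in CA3 and 7 than in CTX, against 18% and 20.9% of all probe sets. The count against CTX was 4 (28.6%) under both other scalings, against 13.2% without centring and 15% after quantile normalization. Compared with CA1, 0 were higher and 1 lower, against 15.6% and 25.1% of all probe sets. These counts were 3 and 0 without centring (against 19.6% and 20.7%) and 2 and 0 after quantile normalization (against 19.2% and 20.6%). *Hnrnpm*, whose protein regulates exon skipping, was at 1109 and 874 in CbG replicates 1 and 2 and 1473 in CA3-3. It was at 735 in CbG-3, 711, 702 and 447 in CA1, 342 and 470 in CA3 replicates 1 and 2 and 425, 255 and 330 in CTX. The 3 arrays with granule markers were highest, and CTX lay with CA3 replicates 1 and 2 at the bottom. Its CbG minus CTX difference was 1.96 ± 0.29 (adjusted p = 0.000198), beside 1.05 ± 0.29 compared with CA3 and 0.76 ± 0.29 compared with CA1 (adjusted p = 0.0502), which missed the threshold. *Hnrnph1*, which binds runs of G, was 1.21 ± 0.19 and 1.08 ± 0.19 higher in CbG than in CA3 and CTX. *Hnrnpa1*, an antagonist of *Srsf1* in splice site choice, was 0.88 ± 0.26 and 0.96 ± 0.26 higher, but CbG replicate 2 alone reached 4829 while CbG replicate 1 (2173) lay within the range of CA1. *Hnrnpa3* was 0.69 ± 0.21 higher than in CTX and *Hnrnpu*, a nuclear scaffold protein, 0.62 ± 0.21 higher than in CA3 and CTX, and both lost the CTX call under each other scaling. *Hnrnpr* did not pass in any CbG comparison (-0.48 to 0.16). The 4 probe sets of *Hnrnpa3* past the filter ranged from 0.28 to 1.33 in their CbG difference, and *Hnrnpa1* has near-identical copies in the genome, so single values of these genes are uncertain.

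The *Rbm* genes ran both ways compared with CA1, at shares near those of all probe sets. *Rbm3*, the cold-inducible RNA-binding protein, was at 4124 and 4754 in CbG replicates 1 and 2 and at 3844 in CA3-3, against 1239 to 2252 in the other 9 arrays. It was 0.99 ± 0.21, 0.97 ± 0.21 and 1.40 ± 0.21 higher in CbG than in CA1, CA3 and CTX with the labels exchanged. *Rbm4b* and *Rbm12b* were also higher than in each other region, by 1.16 to 1.89 and by 0.94 to 1.31. *Rbm4b* passed the filter with just 8 arrays, among them those with granule markers where it was high. It was at 119 and 78.8 in CA3 replicates 1 and 2 and at 146 in CbG-3. The medians of these arrays were 156.9, 145.5 and 161.8, so its difference from CA3 is one from low signal. CTX replicate 3 was also below its array median for this gene. A further probe set that names *Rbm4* beside *Rbm4b* was left out, so the level of these close paralogs is uncertain. *Rbm39*, a coactivator that joins U2AF in splicing, was 0.82 ± 0.18 and 0.93 ± 0.18 higher than in CA3 and CTX.

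*Rbm24*, best known for splicing in muscle, was at 1634, 1156 and 1205 in CA1 and at 760, 836 and 611 in CTX. It was at 578 and 396 in CA3 replicates 1 and 2 and 669 in CbG-3. CbG replicates 1 and 2 were at 148 and 369 and CA3-3 at 120. CA1 was highest and the arrays with granule markers lowest, without overlap. CbG replicate 1 and CA3-3 lay below their array medians of 187.5 and 158.5, so the CbG differences of this gene are ones to low signal. After the exchange CbG was lower than CA1 on the log2 scale (-2.95 ± 0.34, adjusted p = 1.05e-05 in limma) and CA1 higher than CA3 (1.29 ± 0.34) and CTX (1.17 ± 0.34). The last call was lost under both other scalings and that against CA3 under quantile normalization. *Rbm34* and *Rbmx*, chosen after their values were seen, were also lower in CbG than in CA1 (-1.60 and -0.75). *Rbmx*, for hnRNP G, was at 642, 713 and 760 in CA1 and at 312 to 579 in all others. Of 19 *Rbm* members, 4 were higher and 4 lower in CbG than in CA1 (21.1% each, against 15.6% and 25.1% of all probe sets). Compared with CA3 they were 9 and 3 (47.4% and 15.8%, against 18% and 27.5%). Compared with CTX they were 8 and 1 (42.1% and 5.26%, against 20.9% and 13%).

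The study's own contrast, VUL minus RES, gave 0 members in either direction as labelled (0% and 0% of all probe sets). The smallest adjusted p of a member was 0.327 in limma, with 8 members higher and 0 lower at an unadjusted p under 0.05 (5.88% and 3.98% of all probe sets). The methods' paired t-test over 6 pairs, as rebuilt here, called 0 members as labelled. Of all probe sets it called 1.51% higher and 1.22% lower before adjustment, and 0% after it. The study itself used another filter, a further normalization per gene and an unadjusted paired t-test p of at most 0.05. It listed *Dhx16*, *Hnrnpa1*, *Hnrnpa3*, *Hnrnph1*, *Hnrnpu*, *Rbm39*, *Srsf3* and *Sf3b1* as higher in VUL. The probe sets of *Srsf3* name several genes and were not tested here. For the other genes listed, its result was thus not reproduced as labelled. Exchanged, limma called 22 members (30.6%) higher in VUL against 10.2% of all probe sets, and 0 lower against 8.29%. The paired test gave 23 higher before Benjamini-Hochberg adjustment (8.75% of all probe sets) and 5 after it (1.71%). Of the 22, 9 were *Rbm*, 5 *Prpf*, 3 *Dhx*, 3 *Hnrnp* and 2 *Srsf* genes, and 0 were *Snrp*, *Sf3* or *U2af* genes. Of the genes the study listed, the 22 held *Dhx16*, *Hnrnpa1*, *Hnrnph1* and *Rbm39* but not *Hnrnpa3*, *Hnrnpu* or *Sf3b1*. Without centring 13 members were called higher (18.1% against 7.19%), and 12 after quantile normalization (16.7% against 7.38%).

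These 22 members were not all called in the granule layer pair. In limma, 19 of them were called in CbG minus CTX and 7 in CA1 minus CA3, with 4 in both. Of all probe sets, 20.9% and 7.51% were called higher in these contrasts. VUL minus RES is the mean of these 2 pair differences in the same arrays. Calls in the pairs thus follow in part from how the 22 were chosen, and their number is no separate evidence. *Dhx16* was among those called in both, at 2.36 ± 0.20 in CbG minus CTX and 0.78 ± 0.20 in CA1 minus CA3. *Rbmx* was called in the hippocampal pair only (1.12), and *Prpf3*, *Rbm3* and *Hnrnpm* in the cerebellar and cortical pair only. Whether the pairs differed was tested as (CbG minus CTX) minus (CA1 minus CA3). This estimate does not depend on the exchange, because it holds CbG and CA3 with the same sign, but its error does. As labelled 0 members were called higher (1.07% of all probe sets) or lower (0.995%), with a smallest adjusted p of 0.119 in limma. At an unadjusted p under 0.05 there were 8 and 2, beside 11.2% and 6.05% of all probe sets. After the exchange 13 were higher (18.1% against 13.3%) and 2 lower (2.78% against 10.8%), and without centring 8 (11.1% against 9.64%) and 3 (4.17% against 14.2%). The largest among the genes named were *Hnrnpm* (1.66 ± 0.41) and *Dhx16* (1.57 ± 0.28) upward and *Rbm24* (-3.07 ± 0.48) downward.

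**Figure D5:**
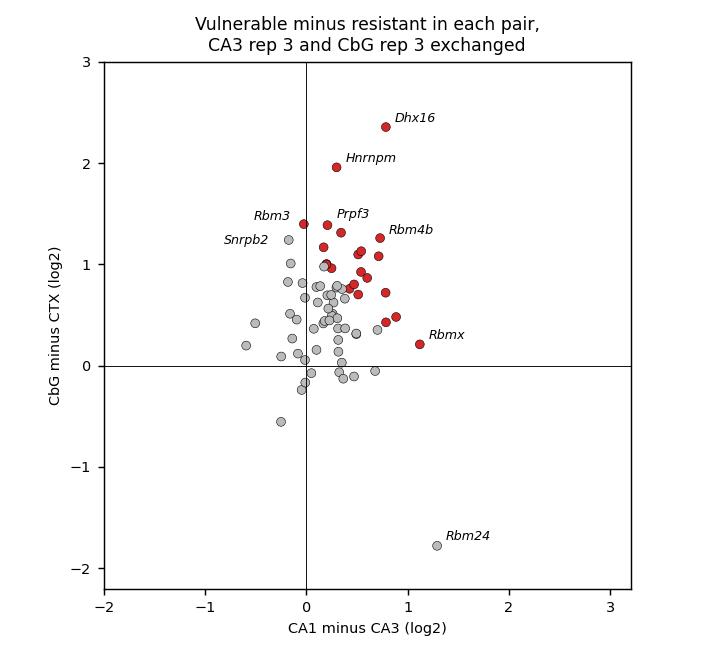
CA1 minus CA3 against CbG minus CTX, in centred log2 signal, for the 72 tested members with the labels of CA3-3 and CbG-3 exchanged, with members called higher in VUL in red. Most red points lie higher on the CbG minus CTX axis than on the CA1 minus CA3 axis, Rbmx is high on the CA1 minus CA3 axis only, and Rbm24 is high in CA1 and low in CbG.

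Leaving out both arrays gave counts between those of the other arrangements or equal to one of them. Over 10 arrays, 8 members were higher and 9 lower in CbG than in CA1 (background 13% and 26.3%), 17 and 5 compared with CA3 (13.9% and 29.2%) and 24 and 1 compared with CTX (14.1% and 12.2%). CA1 minus CTX gave 27 and 0 (27.4% and 7.29%), VUL minus RES 16 and 0 (8.66% and 9.17%), and the difference between the pairs 3 and 1 (6.89% and 7.97%). Higher levels in CbG than in each other region were called for 8 members (5.55%). They were *Dhx16*, *Prpf3*, *Prpf38b*, *Prpf39*, *Rbm3*, *Rbm4b*, *Rbm12b* and *Sf3b1*, all among the 10 found after the exchange, and *Srsf1* and *Rbm8a* were not called.

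Genes of the pathway outside the families also ran both ways. *Son*, a large scaffold of nuclear speckles, was at 4487 and 4466 in CbG replicates 1 and 2 and at 4279 in CA3-3, against 1260 to 2519 elsewhere. *Upf3b*, of the exon junction complex, and *Pnn*, a speckle protein, were 1.20 ± 0.17 and 1.08 ± 0.17 above the mean of the other 3 regions with the labels exchanged. *Khdrbs3*, a neuronal STAR family splicing regulator, was lowest of the list in CbG (-4.56 ± 0.15), at 393 and 269 in CbG replicates 1 and 2 and 206 in CA3-3, against 4658 to 8854 elsewhere. *Celf5* (-2.56 ± 0.15) and *Celf2* (-1.36 ± 0.20), of a family that binds GU-rich RNA, were lower as well. Of these 70 genes, 4 were higher in CbG than in each other region, against 8.31% of all probe sets. Of the 11 member genes with more than 1 probe set past the filter, 10 had the same direction of the CbG difference in all of them with the labels exchanged, and 6 as labelled. With the labels exchanged the exception was *Dhx36*, at -0.14 and 0.18.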

How the data were processed

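The authors deposited 1 signal intensity for each probe set and array, from MAS5 per the submitters' processing notes, linear and scaled by them to the same target on every array. The version of MAS5 is not given in the sources used here. Array medians lay between 145.5 and 199.3. Depth does not apply to arrays, and 3 per region limit the precision. The table holds 15923 probe sets, of which 57 are controls and 12789 have 1 gene symbol. Symbols were updated by Entrez ID. Another 10 member probe sets name several genes, among them those of *Hnrnpk*, *Srsf3* and *Snrpn* with *Snurf*, and were left out. Members and lists were chosen with earlier results of these data known, and the list of other splicing genes shares no gene with the families.

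Each log2 signal was taken relative to its array's median, since the methods also normalized per chip to that point. The model in limma 3.58.1 (R 4.3.3) held a mean for each region, with the replicate number as a block. The paper used paired t-tests and does not state what was paired, and the replicate number was taken as the pair. The pairing was checked by the correlation of deviations from region means, which averaged -0.0403 for the same number and 0.0189 for other numbers as labelled, and 0.0165 and -0.0082 exchanged. Calls needed a Benjamini-Hochberg adjusted p under 0.05 over all probe sets tested and at least 1.5-fold. The calls were also run on simulated data, and that outcome is not given here. Genes named are the 3 highest and the lowest CbG difference of each family with the labels exchanged, the members the paper names and, of the other list, the 3 highest and 3 lowest. Others were named after their values were seen. Alternatives were the array labels, normalization, offset, filter, prior, block, probe set, the paired test and leaving out arrays. Counts on uncentred signals of groups that do not overlap were added after seeing the data. Promoters came from RefSeq GRCr8, and Python 3.11.15 with pandas 2.3.3 and matplotlib 3.10.9 drew the figures.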

Additional observations from a re-analysis of the deposited data

Results flagged for a closer look

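Among the members named, 1 of 6 arrays stood far from the other 5 of its group, as labelled, in 12 of 66 cases. Most of these genes were named for their CbG difference with the labels exchanged, which uses CA3-3, so this number cannot be read against the about 1 in 20 that chance gives. CA3-3 was the one in 8 of them, always within RES. It was highest for *Dhx16* (gap over range 0.858), *Prpf3* (0.809), *Srsf1* (0.803), *Srsf2* (0.784), *Hnrnph1* (0.774), *Hnrnpa1* (0.665) and *Sf3b1* (0.628), and lowest for *Rbm24* (0.722). Its granule marker genes, given above, move with these values. CbG replicate 2 was highest in VUL for *Snrpe* (0.791, signal 2285), *Hnrnpa1* (0.766, signal 4829) and *Hnrnpu* (0.642, signal 3063). This array also had the highest β-actin 3′ to 5′ ratio and the highest sum of Purkinje markers, and their part was not tested. CTX replicate 1 was lowest in RES for *Srsf5* (0.642, signal 1776).

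The vulnerable minus resistant difference itself differed between the pairs, in limma with the labels exchanged, for 10 members named. CbG minus CTX exceeded CA1 minus CA3 by 1.66 for *Hnrnpm*, 1.57 for *Dhx16*, 1.42 for *Rbm3* and for *Snrpb2*, 1.18 for *Prpf3*, 1.16 for *Snrpb*, 1.00 for *Prpf38b*, 0.97 for *Rbm12b* and 0.81 for *Dhx15*. For *Rbm24* it was -3.07. These genes were named for their CbG difference with the labels exchanged, which this contrast also holds, so their number cannot be read alone. Over all 72 members, 13 were higher (18.1% against 13.3% of all probe sets) and 2 lower (2.78% against 10.8%). The call of *Dhx15* was lost under both other scalings, and those of *Rbm12b* and *Snrpb2* without centring. As labelled, *Snrpb* (1.16) and *Dhx57* (-0.39) moved in opposite directions in every replicate of the pairs, a difference that did not pass the test.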

How the results depend on the processing

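As labelled, every CbG comparison, VUL minus RES and the difference between the pairs had 0 calls among the members under quantile normalization, no centring, an offset of 50, both other filters, a trended prior, another probe set and no replicate block. Exchanging the labels gave 10 higher and 9 lower compared with CA1, 28 and 5 with CA3, 35 and 1 with CTX, 22 higher in VUL, 13 and 2 for the difference between the pairs and 10 above each other region. The 10 arrays gave 8 and 9, 17 and 5, 24 and 1, 16, 3 and 1, and 8. Leaving out arrays or a replicate number, the counts as labelled ran from 0 to 7 higher and 0 to 6 lower compared with CA1, 0 to 17 and 0 to 6 with CA3, 0 to 19 and 0 to 1 with CTX, 0 to 17 for VUL, 0 to 4 and 0 to 1 for the pairs and 0 to 7 above each other region. Each of these highest counts was reached without replicate 3. In that fit 71 members were tested among 7353 probe sets, and calls over all of these rose too. Of all probe sets, 869 were higher and 1669 lower in CbG than in CA1, 960 and 2097 than in CA3, and 816 and 788 than in CTX. For VUL 540 were higher, and for the pairs 457 were higher and 527 lower. CA1 minus CTX, 4 higher as labelled, gave 27 with exchanged labels or 10 arrays and 9 with no replicate block. It gave 7 with the filter in all 12 arrays and 0 under quantile normalization, no centring or no filter. By array it ran from 0 (without any CA1 or any CTX array) to 12 (without CA3 replicate 3). Of all probe sets it called 338 of 7535 higher as labelled, 622 with no replicate block and 378 of 5994 with that filter. Quantile normalization gave 120, no centring 96, no filter 35 of 15866, and leaving out CA3 replicate 3 gave 993 of 7380.

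With the labels exchanged, quantile normalization gave 4 lower compared with CA1, 3 lower compared with CA3, 23 higher and 2 lower compared with CTX, 9 and 1 for CA1 minus CTX and 12 for VUL. No centring gave 3, 2, 23 and 2, 8 and 1, and 13, with 8 higher for the pairs. No filter gave 3 lower compared with CA1, 16 higher compared with CA3, 9 for CA1 minus CTX, and 4 and 1 for the pairs. It tested 85 members among 15866 probe sets, and of all of these the same counts were 1866, 1580, 1187, and 551 and 599. The paired test after adjustment gave 5 for VUL. Without single arrays the counts ran from 4 (without CA1 replicate 3) to 13 lower than CA1, 18 (without CA3 replicate 3) to 27 higher and 3 (without CA3 replicate 2 or CbG replicate 2) to 6 lower than CA3, 1 to 2 lower than CTX, 12 (without CTX replicate 3) to 28 for CA1 minus CTX, and 6 (without CA1 replicate 2, CA3 replicate 3 or CTX replicate 3) to 16 and 1 to 2 for the pairs. The calls over all probe sets moved as well. Leaving out CTX replicate 3 gave 1244 of 7370 higher in CA1 than in CTX, beside 2023 of 7535 with all arrays. Leaving out CA3 replicate 3 gave 2047 of 7380 lower in CbG than in CA1, beside 1888 of 7535. The replicate block changed no other call by over 1.5 times. The cause was not tested.

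Single CbG differences from the mean of the other regions that changed sign were not called on either side. As labelled, without single arrays they ran from -0.208 to 0.241 for *Dhx38*, -0.088 to 0.668 for *Hnrnpa1*, -0.01 to 0.438 for *Hnrnpa3*, -0.045 to 0.551 for *Hnrnpu*, -0.094 to 0.531 for *Rbm39*, -0.012 to 0.734 for *Sf3b1*, -0.014 to 0.426 for *Sf3b3*, -0.159 to 0.163 for *Sf3b5*, -0.024 to 0.802 for *Sf3b6*, -0.014 to 0.424 for *Snrpe*, -0.033 to 0.398 for *Srsf11*, -0.364 to 0.146 for *U2af1l4* and -0.256 to 0.027 for *U2af2*. *Sf3b5* was at -0.27 with the labels exchanged and -0.16 over 10 arrays, and *U2af1l4* at 0.002 after quantile normalization. With the labels exchanged *Srsf5* ran from -0.32 to 0.02.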
